A study of Mus musculus with 112 samples.

Results

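The transcripts described here encode 8 hormones or secreted proteins of adipose tissue (adipokines) and the 2 receptors of adiponectin. They are leptin (Lep), adiponectin (Adipoq), resistin (Retn), adipsin or complement factor D (Cfd), chemerin (Rarres2), angiotensinogen (Agt), retinol-binding protein 4 (Rbp4), nicotinamide phosphoribosyltransferase or visfatin (Nampt), Adipor1 and Adipor2. All probe sets that carried these 10 gene symbols were taken, 13 of the 32640 probe sets in the deposited matrix. Nampt, Adipor1 and Adipor2 had 2 probe sets each and the other 7 genes had 1.

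The samples were epididymal white fat, gastrocnemius muscle and liver of male mice that carried alanine in place of proline at the Pro12Ala position of Pparγ on both alleles (Ala/Ala), or of their wild-type littermates (Pro/Pro). The variant was knocked into the germline, so every cell type of an Ala/Ala mouse carried it. Mice began at an age of 8 weeks on rodent chow or on a high-fat diet (HFD), for 15 weeks per the series text or 12 weeks per the sample text, which also name different high-fat feeds. Fat came from 10 Pro/Pro mice on each diet, and from 9 Ala/Ala mice on chow and 8 on HFD. Muscle came from 8 Pro/Pro mice on each diet, and from 10 Ala/Ala mice on chow and 9 on HFD. Liver came from 10 mice of each genotype on each diet. In all, 41 mice gave tissue, and 31 of them were measured in 3 tissues, 9 in 2 and 1 in 1.

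Adipokines are made largely by adipocytes and report on the size and state of the fat store. Leptin is released in proportion to stored fat and acts on the brain to curb food intake, whereas circulating adiponectin tends to fall in obesity. Adiponectin acts through AdipoR1 and AdipoR2, membrane proteins that are coupled to AMP-activated kinase and to PPARα. Pparγ, the receptor altered in the Ala/Ala mice, is the transcription factor that drives adipocyte differentiation, and adiponectin is among its classic target genes.

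Values are log2 ratios of the mouse over a computed average of wild-type HFD arrays in that tissue (the pool), so 0 is the pool and 1 is a doubling. A ratio gives no level, so neither the levels of different genes nor the identity of a tissue could be read from it. Precision is limited by how many arrays there were. In these whole-tissue samples fewer cells of a type and less RNA per cell cannot be told apart. Transcripts of other organs varied between arrays. The mean of 7 hepatocyte genes ranged from -3.34 to 2.77 (log2 ratio) between fat arrays and from -3.57 to 0.25 between muscle arrays. The mean of 9 epididymis and testis genes ranged up to 0.92 in fat. By a distance of over 2 above the median, 7 fat arrays stood apart in one of these lists: on HFD 3 Pro/Pro and 2 Ala/Ala, on chow 1 of each genotype. The lowest correlation of any array pair, over all probe sets, was -0.469 (fat), -0.387 (liver) and -0.204 (muscle). The direction of the ratio was fixed by the pool's arithmetic in fat and liver and was taken to be the same in muscle.

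The first comparison asked how HFD altered these transcripts in fat. Over both genotypes Lep, Rarres2, Rbp4 and 1 probe set of Adipor1 rose, while Agt, Cfd, Adipoq, both probe sets of Nampt and 1 probe set of Adipor2 fell. These were 10 of the 13 member probe sets and 9 of the 10 genes, and Retn did not pass the threshold. Of all probe sets 38.7% passed in the same comparison (limma, Benjamini-Hochberg adjusted p under 0.05 over all probe sets). Within Pro/Pro mice 3 member probe sets were higher and 5 lower on HFD, against 22.5% of all probe sets called. Within Ala/Ala mice 3 were higher and 4 lower, against 26.9%. The median difference of the 13 probe sets over both genotypes was -0.04 (log2), beside 0.02 over all probe sets.

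Markers of other cells were read in the same fat samples. The mean log2 ratio of 6 mesothelium genes (the lining of the fat pad) was 0.49 on chow and -0.05 on HFD in Pro/Pro, and 0.30 and -0.14 in Ala/Ala, and its part in the diet differences was not tested. Transcripts of other organs had higher medians on HFD, with overlapping ranges. The median of the hepatocyte list went from -3.09 on chow to -1.83 on HFD in Pro/Pro and from -2.98 to -1.76 in Ala/Ala. For the epididymis and testis genes the median went from -2.14 to -1.75 in Pro/Pro and from -2.09 to -1.82 in Ala/Ala. The group mean of these genes went from -2.07 to -1.34 and from -2.09 to -1.55, with the highest HFD arrays at 0.92 and -0.46. The group means of 6 macrophage genes lay between -0.04 and 0.09 and those of 5 adipocyte genes between -0.08 and -0.01. The group mean of 4 endothelium genes was -0.07 on both diets in Pro/Pro. In Ala/Ala it was 0.01 on chow and -0.18 on HFD, with overlapping ranges. Against the hepatocyte list no member passed in fat (r from -0.23 for Nampt to 0.11 for Adipor2). Without the 7 arrays that stood apart the differences over both genotypes were 0.49 for Rbp4 and -1.21 for Agt, transcripts that liver also makes.

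Lep, the satiety hormone, rose most of the members. Among Pro/Pro mice its lowest, median and highest log2 ratios in fat were -3.10, -1.57 and -0.996 on chow, and -0.63, -0.07 and 0.61 on HFD. Among Ala/Ala mice they were -2.33, -1.48 and -0.72 on chow, and -0.46, 0.05 and 0.38 on HFD. Every HFD mouse lay above every chow mouse of its genotype. The difference, as log2 ± SE, was 1.69 ± 0.20 in Pro/Pro (adjusted p = 9.2e-08) and 1.45 ± 0.22 in Ala/Ala (adjusted p = 5.4e-06). Over both genotypes this was a 2.97-fold rise.

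Diet groups that do not overlap were found for 5 member genes in Pro/Pro fat (Lep, Rarres2, Agt, Cfd and Adipoq) and for 5 in Ala/Ala fat (Lep, Rarres2, Rbp4, Agt and Cfd). Among all probe sets 2.56% and 4.35%, respectively, had such groups.

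Rarres2 encodes chemerin, a chemoattractant and adipokine secreted as an inactive precursor. Its log2 ratio in Pro/Pro fat ran from -0.95 to -0.39 with a median of -0.63 on chow, and from -0.15 to 0.15 with a median of 0.00 on HFD. In Ala/Ala fat it ran from -1.01 to -0.31 with a median of -0.69 on chow, and from -0.08 to 0.16 with a median of 0.01 on HFD. The diet groups were separate in both genotypes. Rarres2 rose by 0.66 ± 0.07 in Pro/Pro (adjusted p = 7.2e-09) and by 0.70 ± 0.07 in Ala/Ala (adjusted p = 1.7e-08).

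Rbp4 carries retinol in blood. Its log2 ratio in Pro/Pro fat ran from -0.81 to -0.11 with a median of -0.50 on chow, and from -0.22 to 0.30 with a median of -0.01 on HFD, so some mice overlapped. In Ala/Ala fat it ran from -1.01 to -0.32 with a median of -0.46 on chow, and from -0.16 to 0.22 with a median of -0.06 on HFD, with no overlap. It rose by 0.48 ± 0.08 in Pro/Pro (adjusted p = 2.3e-05) and by 0.51 ± 0.09 in Ala/Ala (adjusted p = 3.3e-05). Lep, Rarres2, Rbp4 and Agt passed the threshold in both genotypes under every alternative and every single omission that was run.

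Agt, the precursor of the angiotensins, fell most of the members. Its log2 ratio in Pro/Pro fat ran from 0.79 to 1.52 with a median of 1.02 on chow, and from -0.36 to 0.63 with a median of -0.08 on HFD. In Ala/Ala fat it ran from 0.73 to 1.73 with a median of 1.18 on chow, and from -1.02 to 0.02 with a median of -0.13 on HFD. No HFD mouse reached the lowest chow mouse of its genotype. Agt fell by 1.10 ± 0.13 in Pro/Pro (adjusted p = 8.3e-08) and by 1.40 ± 0.14 in Ala/Ala (adjusted p = 7.0e-09). On HFD it stood at 0.421 times its chow ratio over both genotypes.

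Cfd is the serine protease that starts amplification of the alternative complement pathway. Its chow values were narrow, from 0.30 to 0.45 in Pro/Pro fat (median 0.40) and from 0.30 to 0.51 in Ala/Ala fat (median 0.38). On HFD they spread from -0.24 to 0.18 in Pro/Pro (median 0.04) and from -0.24 to 0.13 in Ala/Ala (median -0.07). The diet groups were separate in both genotypes, and the SD among mice was 0.05 on chow and 0.16 on HFD in Pro/Pro, and 0.07 and 0.14 in Ala/Ala. Cfd fell by 0.39 ± 0.05 in Pro/Pro (adjusted p = 1.1e-06) and by 0.44 ± 0.06 in Ala/Ala (adjusted p = 5.2e-07). These calls ended, at adjusted p = 0.15 and 0.11, when the spread was estimated over the 3 tissues together.

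Adipoq, the transcript of adiponectin, moved far less than Lep, Agt or Cfd. Its log2 ratio in Pro/Pro fat ran from 0.05 to 0.15 with a median of 0.10 on chow, and from -0.14 to 0.05 with a median of 0.01 on HFD. In Ala/Ala fat it ran from 0.04 to 0.16 with a median of 0.07 on chow, and from -0.17 to 0.07 with a median of -0.06 on HFD. Adipoq fell by 0.10 ± 0.03 in Pro/Pro (adjusted p = 0.019) and by 0.14 ± 0.03 in Ala/Ala (adjusted p = 0.0016), to 0.919 times its chow ratio over both. The Pro/Pro call ended after quantile normalization (adjusted p = 0.065) and without the 7 fat arrays that stood apart (adjusted p = 0.060), and all Adipoq calls ended with a spread shared by the 3 tissues.

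**Figure D1:**
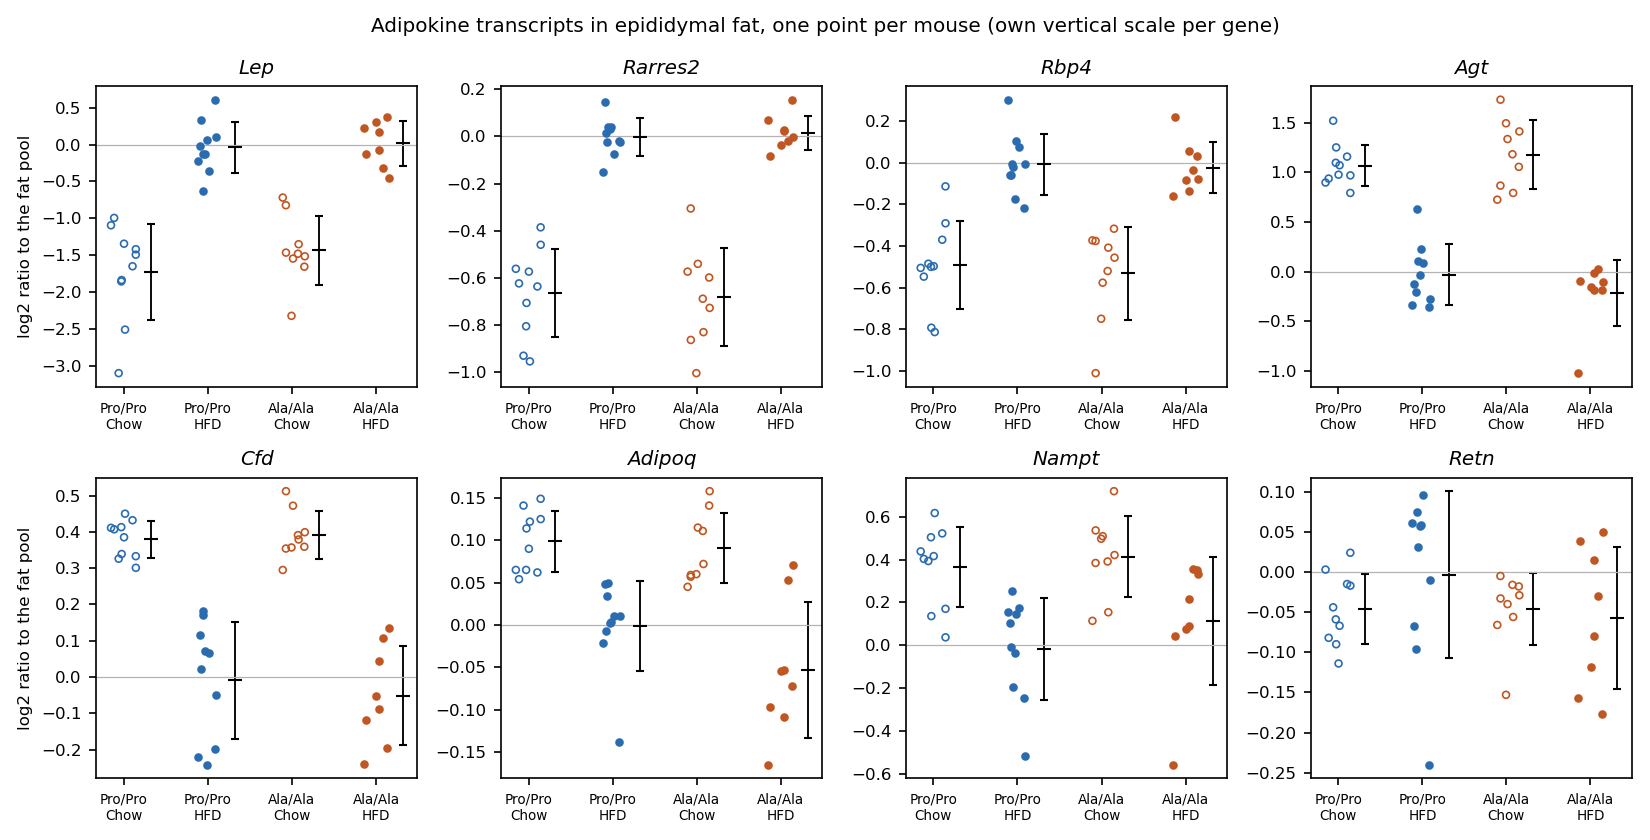
Log2 ratio to the fat pool of 8 adipokine transcripts in each mouse (open circles chow, filled circles HFD, blue Pro/Pro, orange Ala/Ala), with the group mean and SD in black and a vertical scale of its own for each gene. Lep, Rarres2 and Rbp4 lie higher and Agt, Cfd and Adipoq lower on HFD, while the diet groups of Retn overlap, with all its values between -0.24 and 0.10.

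Nampt makes nicotinamide mononucleotide, the limiting step of NAD salvage, and is also found outside cells. Its probe set 100034846_TGI_at had medians of 0.41 on chow and 0.05 on HFD in Pro/Pro fat, and of 0.42 and 0.15 in Ala/Ala fat, with overlapping diet groups in both. It fell by 0.38 ± 0.10 in Pro/Pro (adjusted p = 0.0044) and by 0.30 ± 0.11 in Ala/Ala (adjusted p = 0.036). Probe set 100012282_TGI_at differed by -0.24 ± 0.10 (adjusted p = 0.089) and -0.28 ± 0.11 (adjusted p = 0.063), and passed only over both genotypes, at -0.26 ± 0.08 (adjusted p = 0.0062), a call that ended after quantile normalization (-0.20, adjusted p = 0.058). The 2 probe sets varied together within groups (Pearson r = 0.82 over 37 fat arrays). The Ala/Ala call of Nampt at probe set 100034846_TGI_at lay near the threshold. It ended without any 1 of 7 mice (Mouse80, Mouse99, Mouse109, Mouse113, Mouse120, Mouse122 and Mouse152). Without Mouse152 the difference was -0.21 (adjusted p = 0.12). Without any 1 of the others it lay between -0.30 and -0.26 (adjusted p from 0.054 to 0.074).

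Retn, which encodes resistin, a cysteine-rich hormone that mouse adipocytes secrete, differed by 0.04 ± 0.04 in Pro/Pro fat (95% interval -0.04 to 0.12, adjusted p = 0.49) and by -0.01 ± 0.04 in Ala/Ala fat (-0.10 to 0.07, adjusted p = 0.87). All 37 fat values of Retn lay between -0.24 and 0.10.

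Of the receptors, Adipor1, the one coupled mainly to AMP-activated kinase, rose by 0.13 ± 0.05 over both genotypes at probe set 100004390_TGI_at (adjusted p = 0.030) and differed by 0.00 ± 0.03 at probe set 100038434_TGI_at. That call ended without Mouse88 or Mouse149, after median centring (adjusted p = 0.051), with a spread shared by the 3 tissues (adjusted p = 0.073), and with the mean of both probe sets (0.065, adjusted p = 0.081). Adipor2, the receptor coupled mainly to PPARα, fell by 0.18 ± 0.05 over both genotypes at probe set 100023351_TGI_at (adjusted p = 0.0015), and by 0.19 ± 0.06 in Pro/Pro (adjusted p = 0.019). The call over both genotypes ended after quantile normalization (-0.084, adjusted p = 0.14) and with the mean of both probe sets (-0.11, adjusted p = 0.26). Its probe set 100009718_TGI_at differed by 0.28 ± 0.16 in Pro/Pro and by -0.36 ± 0.18 in Ala/Ala, neither past the threshold. The Pro/Pro call of probe set 100023351_TGI_at ended without Mouse85 (adjusted p = 0.051), after quantile normalization (adjusted p = 0.062) and without the 7 fat arrays that stood apart (adjusted p = 0.057), and with the mean of both probe sets the Pro/Pro difference was 0.04 (adjusted p = 0.81).

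No member passed the test of a diet effect that differed between genotypes in fat. For the interaction limma called 0 of 32640 probe sets (0%), with 1622 at an unadjusted p under 0.05. The largest member value was -0.64 ± 0.24 at Adipor2 probe set 100009718_TGI_at (adjusted p = 0.99). For Lep the interaction was -0.25 with a 95% interval from -0.85 to 0.35.

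The stretches just upstream of the start of transcription are shown for Lep, which rose most in fat, for Agt and Cfd, whose diet groups were separate, and for Adipor2, which is described below by genotype. They come from RefSeq on GRCm38.p6 and hold the 250 bases before the annotated start, written along the gene's own strand. They are chr6:29059971-29060220 (plus strand) for Lep, chr8:124569707-124569956 (minus) for Agt, chr10:79890603-79890852 (plus) for Cfd and chr6:119388735-119388984 (minus) for Adipor2. Capitals mark TTGCNNAA, a form of the site of the C/EBP factors of adipocytes, and TATAA, the core of the TATA box, both sought on either strand.
Lep: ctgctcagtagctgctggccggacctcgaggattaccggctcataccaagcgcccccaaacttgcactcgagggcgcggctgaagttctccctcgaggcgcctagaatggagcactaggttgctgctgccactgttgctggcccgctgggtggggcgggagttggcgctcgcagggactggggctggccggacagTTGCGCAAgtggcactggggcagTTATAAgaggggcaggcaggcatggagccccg
Agt: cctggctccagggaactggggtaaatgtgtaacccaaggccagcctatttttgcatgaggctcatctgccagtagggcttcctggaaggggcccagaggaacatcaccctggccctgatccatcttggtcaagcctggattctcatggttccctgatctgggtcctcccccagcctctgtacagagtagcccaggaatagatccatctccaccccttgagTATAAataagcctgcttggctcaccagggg
Cfd: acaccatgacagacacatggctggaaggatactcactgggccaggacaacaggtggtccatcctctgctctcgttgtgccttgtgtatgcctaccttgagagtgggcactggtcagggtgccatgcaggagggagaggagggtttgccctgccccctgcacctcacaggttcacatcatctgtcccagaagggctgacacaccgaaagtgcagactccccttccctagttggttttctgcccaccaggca
Adipor2: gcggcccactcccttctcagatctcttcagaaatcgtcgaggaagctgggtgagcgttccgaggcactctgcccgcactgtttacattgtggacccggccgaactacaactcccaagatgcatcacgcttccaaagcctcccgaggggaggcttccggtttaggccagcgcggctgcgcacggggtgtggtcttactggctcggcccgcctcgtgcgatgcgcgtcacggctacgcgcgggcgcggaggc
The Lep stretch held TTGCGCAA from 55 to 48 bases before the start and TATAA from 31 to 27 bases before it, where the reverse form TTATA overlapped it by 4 bases. The Agt stretch held TATAA from 30 to 26 bases before the start, and neither motif was found in the Cfd and Adipor2 stretches. Of 32851 stretches of this length, 9.56% held TTGCNNAA and 22.8% held TATAA. Among 11 stretches of 9 member genes (none was matched for Rarres2), TTGCNNAA stood in 2, of Lep and Rbp4, and TATAA in 3, of Lep, Rbp4 and Agt. The binding motif of PPAR with RXR, AGGTCA repeated after 1 base, stood in 0 of the 11 and in 0.0335% of all, and TCACNCCAC, a form of the SREBP motif, in 0 of the 11 and in 1.05% of all.

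Genes that act with these adipokines were counted in fat over both genotypes, with 1 probe set per gene. Of the measured genes in all 11 lists together 23 rose and 29 fell, or 47.7%. In this comparison 38.7% of all probe sets were called. These shares are not alike, as each gene stood by its most variable probe set, and that variance includes the diet difference. The lists are small, and each count below is to be read against the 38.7% with this limit. Among 12 genes of leptin reception and signalling 1 rose and 4 fell, including the leptin receptor Lepr (-0.44 ± 0.14), the feedback inhibitor Socs3 (-0.39 ± 0.10) and the transducers Stat3 (-0.22 ± 0.07) and Stat5b (-0.19 ± 0.03). Among 16 genes of adiponectin assembly, binding and signalling 1 rose and 7 fell. Those that fell included Prkaa1, a catalytic subunit of AMP-activated kinase (-0.67 ± 0.08), the deacetylase Sirt1 (-0.61 ± 0.08), the adaptor Appl2 (-0.53 ± 0.04) and the upstream kinase Stk11 (-0.13 ± 0.03). Of 9 other genes of the receptors' Paqr family 4 rose and 0 fell. Paqr9 rose by 2.10 ± 0.13, Paqr7 by 0.84 ± 0.09, Mmd by 0.44 ± 0.10 and Paqr4 by 0.15 ± 0.05. Of 8 measured relatives of adiponectin among the C1q/TNF-related proteins 3 rose and 0 fell, C1qtnf9 by 0.44 ± 0.12, C1qtnf3 by 0.36 ± 0.14 and C1qtnf6 by 0.22 ± 0.05.

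The other partners gave mixed counts, beside the same 38.7% of all probe sets. Of 4 measured chemerin receptors and activating proteases 2 rose, the receptor Cmklr1 by 0.41 ± 0.11 and the protease Ctsl by 0.38 ± 0.06. Of 6 genes of the alternative complement pathway, in which Cfd acts, 2 fell, C3 by 0.73 ± 0.07 and properdin (Cfp) by 0.29 ± 0.07. Of 10 renin-angiotensin genes 1 rose, Ctsd by 0.34 ± 0.05, and 4 fell, including the angiotensin-cleaving peptidases Enpep (-0.84 ± 0.11) and Lnpep (-0.37 ± 0.08) and the chymase Cma1 (-0.48 ± 0.09). Of 11 genes of retinol transport and retinoid metabolism 4 fell, Cyp26b1 by 0.54 ± 0.11, Rdh10 by 0.34 ± 0.05, Aldh1a2 by 0.25 ± 0.09 and Aldh1a1 by 0.24 ± 0.05. Of 9 NAD genes 3 rose, including Nmnat1 (0.33 ± 0.05) and Nnmt (0.26 ± 0.05), and 3 fell, including Naprt (-0.41 ± 0.06) and Nmnat3 (-0.39 ± 0.06). The resistin relative Retnla fell by 0.46 ± 0.06. Of 22 other adipokines 8 rose, including Serpinf1 (0.86 ± 0.06), Sparc (0.27 ± 0.03) and Angptl4 (0.25 ± 0.04), and 4 fell, including Gpx3 (-1.05 ± 0.10).

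Across the 37 fat arrays, after the group means were removed, members differed in which other members they followed. These correlations describe arrays that share the pool and the array processing. Lep varied with Rarres2 (r = 0.67) and against Agt (r = -0.60) and Adipor2 probe set 100009718_TGI_at (r = -0.71). Agt varied with Nampt (r = 0.59), and Adipoq with Adipor2 at that probe set (r = 0.57), Retn (r = 0.53) and Cfd (r = 0.53). Among all genes Lep was most like Npr3 (r = 0.88), Tuba1a (0.88) and Gpc1 (0.83), and Adipoq was most like Ces3 (0.86), Derl1 (0.86) and Fdx1 (0.82). The genes most like Agt were C2 (0.81), Sort1 (0.79) and Cyp1b1 (0.77). Those most like Rarres2 were Prr32 (0.83), Cd59a (0.82) and Mrps6 (0.77), and those most like Rbp4 were Ntsr2 (0.89), Myl1 (0.87) and Slc18b1 (0.86). Cfd came nearest to Gstt1 (0.76), Retn to Fahd2a (0.85), Nampt to Ngly1 (0.82), Adipor1 to Zfyve26 (0.68) and Adipor2 probe set 100009718_TGI_at to Wnk1 (0.85).

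The second comparison asked whether the Pro12Ala variant altered these transcripts. Adipor2 was the member gene called, and it was called at 1 of its probe sets, 100023351_TGI_at, which was higher in Ala/Ala than in Pro/Pro in fat and in muscle. The background was low: over both diets 0.0429% of all probe sets were called in fat, 0.0337% in muscle and 0.0153% in liver. The other 12 member probe sets did not pass in any tissue or diet. Pparg itself differed by -0.04 ± 0.08 in fat, 0.17 ± 0.08 in muscle and 0.19 ± 0.15 in liver, none past the threshold. The variant changes the protein's sequence, so this value does not check the genotype labels.

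In fat on chow the lowest, median and highest log2 ratios of Adipor2 probe set 100023351_TGI_at were 0.02, 0.09 and 0.52 in Pro/Pro, against 0.41, 0.61 and 0.80 in Ala/Ala. On HFD they were -0.24, 0.03 and 0.16 in Pro/Pro, against 0.31, 0.41 and 0.60 in Ala/Ala. These ranges did not meet on HFD, and on chow the highest Pro/Pro mice overlapped the lowest Ala/Ala mice. How many of all probe sets had separate genotypes within a single diet was not counted. The difference between genotypes was 0.41 ± 0.06 on chow (adjusted p = 0.0017; 0.0153% of all probe sets called) and 0.43 ± 0.07 on HFD (adjusted p = 0.0013; 0.0705% called). Without the 7 fat arrays that stood apart the HFD difference was 0.41 (adjusted p = 0.064), which ended that call, and the chow call ended in the methods' t-test (adjusted p = 0.29).

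In muscle on chow the lowest, median and highest values of the same probe set were -0.10, -0.02 and 0.24 in Pro/Pro, against 0.19, 0.44 and 0.58 in Ala/Ala. On HFD they were -0.13, 0.00 and 0.08 in Pro/Pro, against 0.18, 0.42 and 0.49 in Ala/Ala. Of 19 Ala/Ala mice 17 lay above all 16 Pro/Pro mice. Over both diets the genotypes did not separate fully for any member, and they did for 0% of all probe sets in fat, 0.00306% in muscle and 0% in liver. The difference was 0.42 ± 0.05 on chow (adjusted p = 9.3e-06; 0.0184% called) and 0.41 ± 0.05 on HFD (adjusted p = 9.6e-06; 0.0153% called). Over both diets the probe set stood at 1.34 times the Pro/Pro ratio in Ala/Ala fat and at 1.33 times in Ala/Ala muscle, and it ranked 1 of 32640 by p in each tissue (adjusted p = 7.3e-07 and 1.3e-09).

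In liver the same probe set did not separate the genotypes. Its values ran from -0.39 to 0.32 in Pro/Pro and from -0.27 to 0.31 in Ala/Ala, and the difference was 0.00 ± 0.06 (95% interval -0.11 to 0.12, adjusted p = 0.98). The genotype difference was larger in fat than in liver by 0.42 ± 0.07 (adjusted p = 8.9e-05; 0.61% of all probe sets called) and larger in muscle than in liver by 0.41 ± 0.07 (adjusted p = 0.00021; 0.0214% called). Fat and muscle differed by 0.01 ± 0.07 (95% interval -0.13 to 0.14; 0.0184% called).

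The second Adipor2 probe set, 100009718_TGI_at, gave a different picture. Its genotype difference over both diets was -0.07 ± 0.12 in fat (95% interval -0.32 to 0.18), 0.12 ± 0.07 in muscle (-0.02 to 0.26) and 0.13 ± 0.09 in liver (-0.06 to 0.31), none past the threshold. Within groups the 2 probe sets correlated at 0.69 in fat, 0.06 in muscle and 0.65 in liver. When both were averaged, the difference was 0.18 in fat (adjusted p = 0.84) and 0.27 in muscle (adjusted p = 0.00048). The 2 probe sets of Adipor2 thus disagreed on the genotype, and which transcripts each detects was not tested here.

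**Figure D2:**
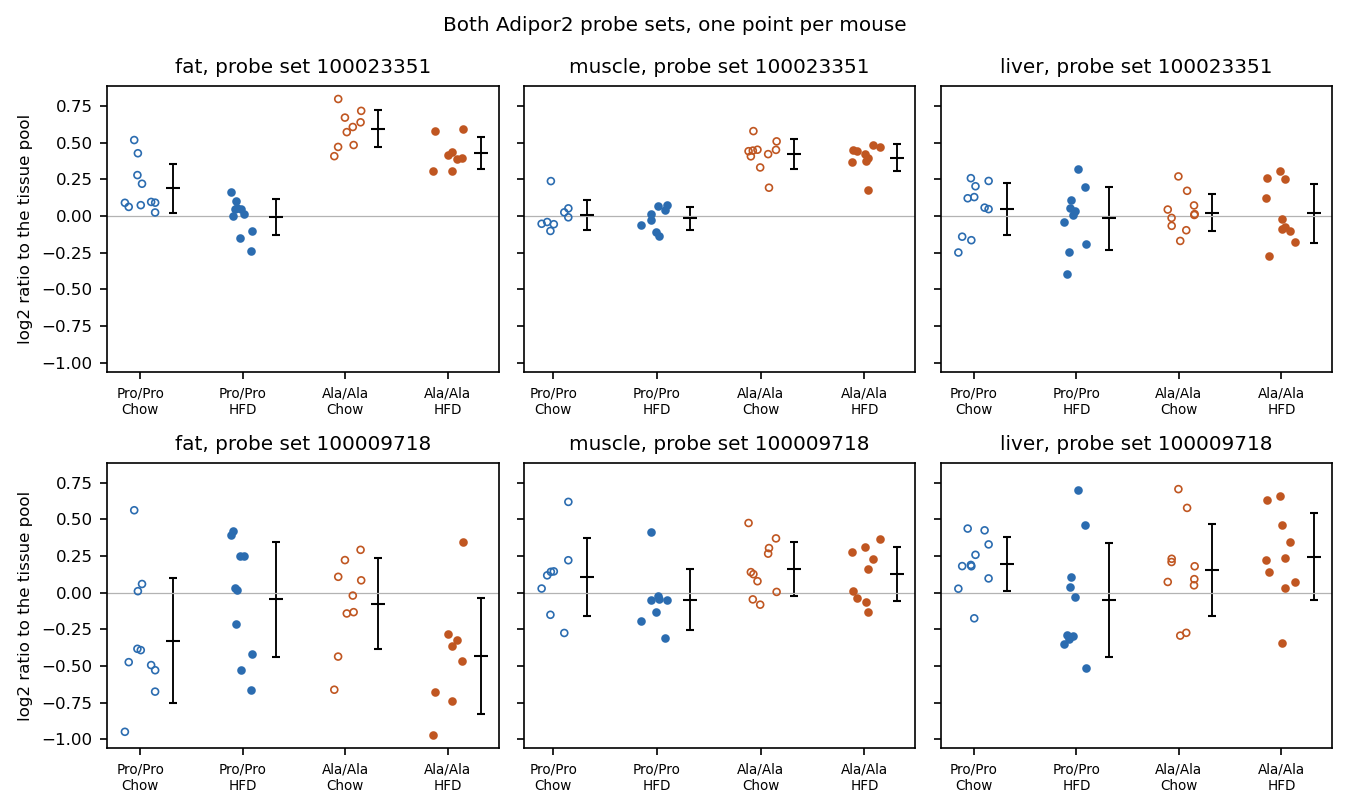
Log2 ratio to the tissue pool of both Adipor2 probe sets in each mouse of fat, muscle and liver (open circles chow, filled circles HFD, blue Pro/Pro, orange Ala/Ala), with the group mean and SD in black on one vertical scale. At probe set 100023351_TGI_at (top) Ala/Ala mice lie higher in fat and muscle and not in liver, and at probe set 100009718_TGI_at (bottom) the genotypes overlap in every tissue.

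Adipor2 lies on chromosome 6, as does Pparg, the edited gene, with 32 measured genes between them in the gene order of GRCm38.p6. Lep and Rarres2 also lie on chromosome 6, and their genotype differences in fat were 0.18 ± 0.15 and 0.00 ± 0.05. The 10 measured genes on each side of Adipor2 held 36 probe sets. Over both diets 0 of these were called for genotype in fat (0.0429% of all probe sets) and 0 in liver (0.0153%). On HFD alone 1 was called in fat (0.0705% of all), 1 of the 3 probe sets of Kdm5a, in the eighth place on one side. It was lower in Ala/Ala by 0.49 ± 0.10 (adjusted p = 0.035) and was named after its value was seen. In muscle 3 of the 36 were called over both diets, beside 0.0337% of all probe sets. Zfp9, in the seventh place on the other side, was higher in Ala/Ala by 0.45 ± 0.05 (adjusted p = 3.5e-06). Erc1, in the third place on the side of Kdm5a, was higher by 0.23 ± 0.03 at 1 of its 3 probe sets (adjusted p = 0.00020), and its neighbour 3110021A11Rik was lower by 0.22 ± 0.04 (adjusted p = 0.0011).

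The third question was whether muscle and liver showed the diet effects seen in fat. In muscle Lep was the member called. Its lowest, median and highest log2 ratios in Ala/Ala muscle were -1.40, -0.79 and 0.07 on chow, and -0.97, 1.14 and 2.37 on HFD. In Pro/Pro muscle they were -1.70, -1.02 and 0.04 on chow, and -0.63, 0.17 and 0.32 on HFD. The diet groups overlapped in both genotypes (0.319% of all probe sets had separate diet groups in Pro/Pro muscle and 0.273% in Ala/Ala muscle), and the Ala/Ala HFD mice were widely spread. Lep rose by 1.71 ± 0.27 in Ala/Ala (adjusted p = 0.00012; 1.95% of all probe sets called) and by 1.35 ± 0.20 over both genotypes (adjusted p = 2.0e-05; 5.37% called). In Pro/Pro it differed by 0.98 ± 0.29 (adjusted p = 0.10), where 0.956% of all probe sets and 0 members were called. Without Mouse84 the Pro/Pro difference passed (1.12, adjusted p = 0.049), and without Mouse127 it also did (0.98, adjusted p = 0.028).

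The other members did not pass in muscle, though several differences were as large as in fat or larger. Retn in Ala/Ala muscle ran from -0.64 to 0.56 with a median of 0.05 on chow, and from 0.04 to 1.46 with a median of 0.69 on HFD. Adipoq ran there from -0.52 to 1.001 with a median of 0.44 on chow, and from 0.16 to 1.62 with a median of 0.77 on HFD. Rbp4 ran there from -2.25 to -1.22 with a median of -1.63 on chow, and from -2.10 to 0.27 with a median of -0.73 on HFD. The diet groups of all 3 genes overlapped. In Ala/Ala mice Rbp4 differed by 0.95 ± 0.28 between diets (adjusted p = 0.066), Retn by 0.73 ± 0.23 (adjusted p = 0.095) and Adipoq by 0.57 ± 0.23 (adjusted p = 0.24). Cfd differed by -0.72 ± 0.24 in Pro/Pro (adjusted p = 0.17). Agt, which fell in fat, differed in muscle by -0.09 ± 0.07 (Pro/Pro) and 0.01 ± 0.07 (Ala/Ala). The spread among mice was wide for these adipokines: the SD of Adipoq was 0.72 in Pro/Pro chow muscle and 0.04 in Pro/Pro chow fat.

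On HFD no adipokine passed the threshold for genotype in muscle, and the 4 largest differences are given first, all higher in Ala/Ala. Lep differed by 1.02 ± 0.28 (adjusted p = 0.33), Adipoq by 0.82 ± 0.24 (adjusted p = 0.37), Cfd by 0.80 ± 0.24 (adjusted p = 0.39) and Retn by 0.66 ± 0.24 (adjusted p = 0.48). Rbp4 (0.54), Rarres2 (0.27), Nampt (0.05 at both probe sets) and Agt (0.03) were higher by less. For the interaction of diet and genotype in muscle limma called 0 probe sets (0%), with 1365 at an unadjusted p under 0.05. With 1 spread estimated over the 3 tissues, Lep, Adipoq and Retn passed for genotype on HFD (adjusted p = 0.014, 0.0010 and 0.049). Among Ala/Ala HFD mice these genes spread more in muscle than in fat or liver, so that fit understates the muscle spread. The SD of Lep in these mice was 0.98 in muscle, 0.30 in fat and 0.15 in liver. The SE of its genotype difference fell from 0.28 to 0.21.

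Adipocyte genes moved in the same muscle samples. The mean of 5 measured genes (Cidec, Fabp4, Acvr1c, Tusc5 and Aqp7; 3 more were listed) averaged 0.01 in both Pro/Pro groups, 0.03 in Ala/Ala mice on chow and 0.39 in those on HFD. It ranged from 0.01 to 0.73 in the Ala/Ala HFD mice, and up to 0.69 in 1 Pro/Pro chow mouse. Deviations from group means of the members were set against this list over 35 muscle arrays, as part of 60 relations adjusted together. Retn followed the list at r = 0.90 (Spearman rho = 0.86), Adipoq at 0.85 (0.82), Rarres2 at 0.72 (0.76) and Cfd at 0.66 (0.66), with an adjusted permutation p of 0.00015 for the first 3 and 0.00048 for Cfd. Without the 2 mice whose list mean lay farthest from the median these were 0.86, 0.78, 0.74 and 0.61. Within the 4 groups r lay between 0.51 and 0.98 for these 4 genes.

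Lep followed the adipocyte list less closely, at r = 0.62 (rho = 0.51, adjusted permutation p = 0.0028), and within groups r was 0.62 and 0.12 in Pro/Pro mice on chow and HFD, and 0.35 and 0.86 in the Ala/Ala ones. With the list as a covariate the Ala/Ala rise of Lep in muscle came to 1.12 (adjusted p = 0.015) in place of 1.71, and with the hepatocyte list added it came to 1.03 (adjusted p = 0.037). Under the adipocyte covariate the genotype difference on HFD was 0.41 for Lep and 0.25 for Cfd, while the Pro/Pro diet difference of Lep (0.97, adjusted p = 0.029) and that of Cfd (-0.74, adjusted p = 0.041) passed. Nampt, Agt, Adipor1 and Adipor2 probe set 100009718_TGI_at did not pass against the list (r from -0.36 to 0.32). The Adipor2 genotype difference in muscle at probe set 100023351_TGI_at was 0.39 over both diets with this covariate (adjusted p = 6.6e-08). Rbp4 in muscle followed the mean of 7 hepatocyte genes at r = 0.79 (rho = 0.79, adjusted permutation p = 0.00015), and at r = 0.73 without the 2 farthest mice. The group mean of this hepatocyte list in muscle was -2.77 on chow and -1.96 on HFD in Ala/Ala. In Pro/Pro it was -1.87 and -2.11, and the ranges of the diet groups overlapped in both genotypes. The r of Rbp4 with the adipocyte list was 0.50 (adjusted permutation p = 0.047), which did not hold without the 2 farthest mice (adjusted p = 0.076). The part of fat or liver RNA in the muscle values was not tested.

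**Figure D3:**
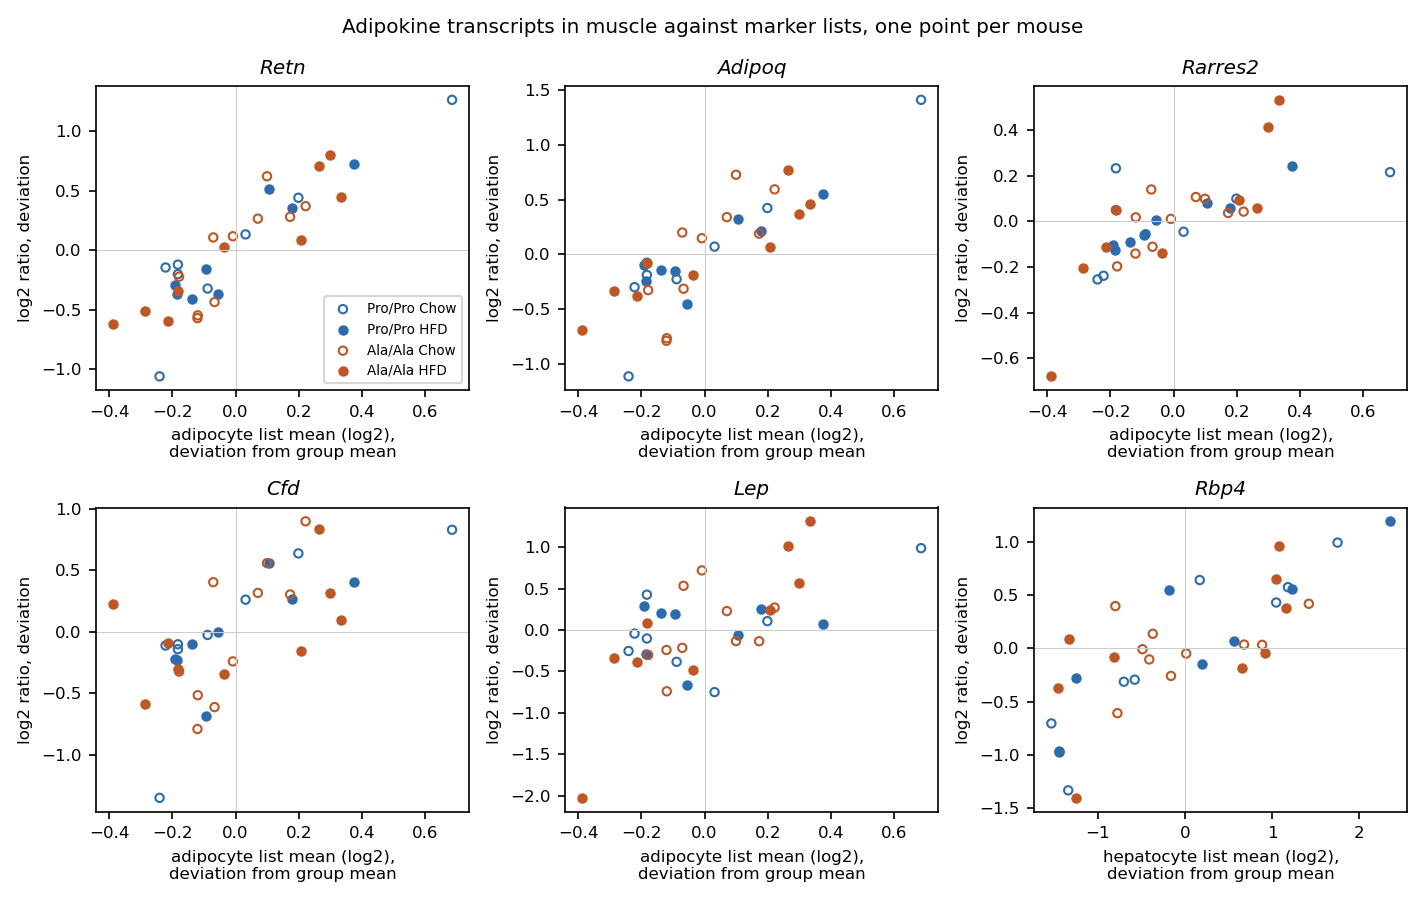
Deviation from the group mean of 5 adipokine transcripts in each muscle against the mean of 5 adipocyte genes, and of Rbp4 against the mean of 7 hepatocyte genes, in log2 units (open circles chow, filled circles HFD, blue Pro/Pro, orange Ala/Ala). Retn (r = 0.90) and Adipoq (r = 0.85) lie near a line and Lep (r = 0.62) is more scattered.

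In liver no member passed in any comparison, and diet groups were separate for 0% of all probe sets. For diet limma called 0 probe sets (0%) in Pro/Pro, 0 (0%) in Ala/Ala and 0 (0%) over both genotypes, with 1892, 929 and 1572 at an unadjusted p under 0.05. For genotype it called 0 (0%) on chow and 0 (0%) on HFD, with 3165 and 2855 at an unadjusted p under 0.05, and for the interaction 0 (0%) with 1161. Agt and Rbp4, both made in quantity by hepatocytes, had narrow values. All 40 liver values of Rbp4 lay between -0.17 and 0.06, and its diet difference was 0.01 ± 0.02 (95% interval -0.04 to 0.06). Those of Agt lay between -0.29 and 0.23, with a diet difference of -0.04 ± 0.04 (-0.12 to 0.04). Cfd was the most spread member, from -1.18 to 1.59, with a diet difference of 0.23 ± 0.16 (-0.10 to 0.57). Lep differed by 0.03 ± 0.05 between diets.

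The diet effects were compared between tissues in 1 fit over all 12 groups. For Agt the effect in fat lay below that in muscle by 1.21 ± 0.10 and below that in liver by 1.21 ± 0.09. For Rarres2 it lay above muscle by 0.68 ± 0.08 and above liver by 0.67 ± 0.08. For Lep it lay above liver by 1.54 ± 0.20 in fat (adjusted p = 9.6e-10) and by 1.32 ± 0.20 in muscle (adjusted p = 4.0e-06), while fat and muscle did not differ past the threshold. Fat also differed from liver for Rbp4 (0.49 ± 0.17, adjusted p = 0.021), Cfd (-0.65 ± 0.20, adjusted p = 0.0086) and both probe sets of Nampt (-0.29 ± 0.09 and -0.24 ± 0.09). Fat differed from muscle for Retn (-0.43 ± 0.15, adjusted p = 0.022) and Adipoq (-0.37 ± 0.14, adjusted p = 0.046). Of all probe sets 25.1% were called between fat and muscle, 26.6% between fat and liver and 0.824% between muscle and liver. When each tissue kept its own spread, the calls of Retn (adjusted p = 0.059), Adipoq (adjusted p = 0.10) and Nampt probe set 100012282_TGI_at (adjusted p = 0.062) ended.

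**Figure D4:**
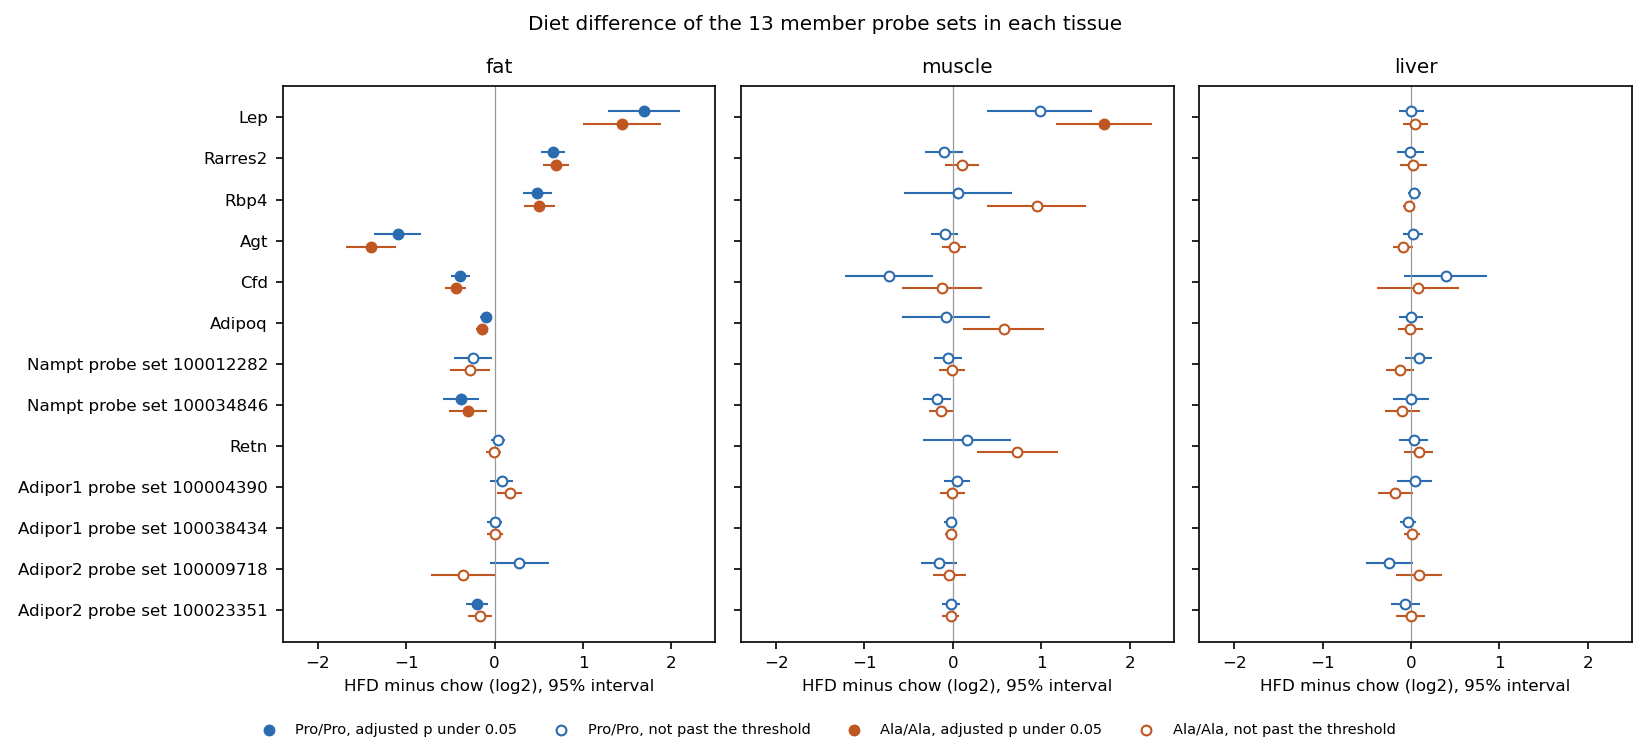
Diet difference (HFD minus chow, log2, with its 95% interval) of the 13 member probe sets in fat, muscle and liver for Pro/Pro (blue) and Ala/Ala (orange), with filled points where the adjusted p was under 0.05. Filled points lie in fat, with Lep in Ala/Ala muscle (1.71) the single one outside it.

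The same mice were measured in several tissues, so each member was also followed within animals, as deviations from group means. Of 30 such relations 2 passed after adjustment over all 60. At probe set 100004390_TGI_at Adipor1 ran opposite in fat and muscle of the same mouse (r = -0.63, rho = -0.60, 31 mice). The adjusted permutation p was 0.0028, and within the 4 groups r was -0.45, -0.63, -0.71 and -0.70. The gene's other probe set was not tested between tissues. Within groups that probe set correlated with the tested one at 0.105 over 37 fat arrays and at 0.513 over 35 muscle arrays. The opposite course is therefore a result of the tested probe set and not of Adipor1 as a whole. Nampt ran together in fat and muscle (probe set 100034846_TGI_at, r = 0.52, rho = 0.54, 31 mice, adjusted permutation p = 0.016), with r = 0.47, 0.74, 0.29 and 0.69 within groups. Without the 2 mice farthest from the median in fat r was -0.57 and 0.53, and both still passed. Lep in fat and muscle correlated at 0.45 (rho = 0.42, adjusted permutation p = 0.064), which missed the threshold, and without the 2 farthest mice at 0.41. No member passed between liver and either of the other tissues.

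**Figure D5:**
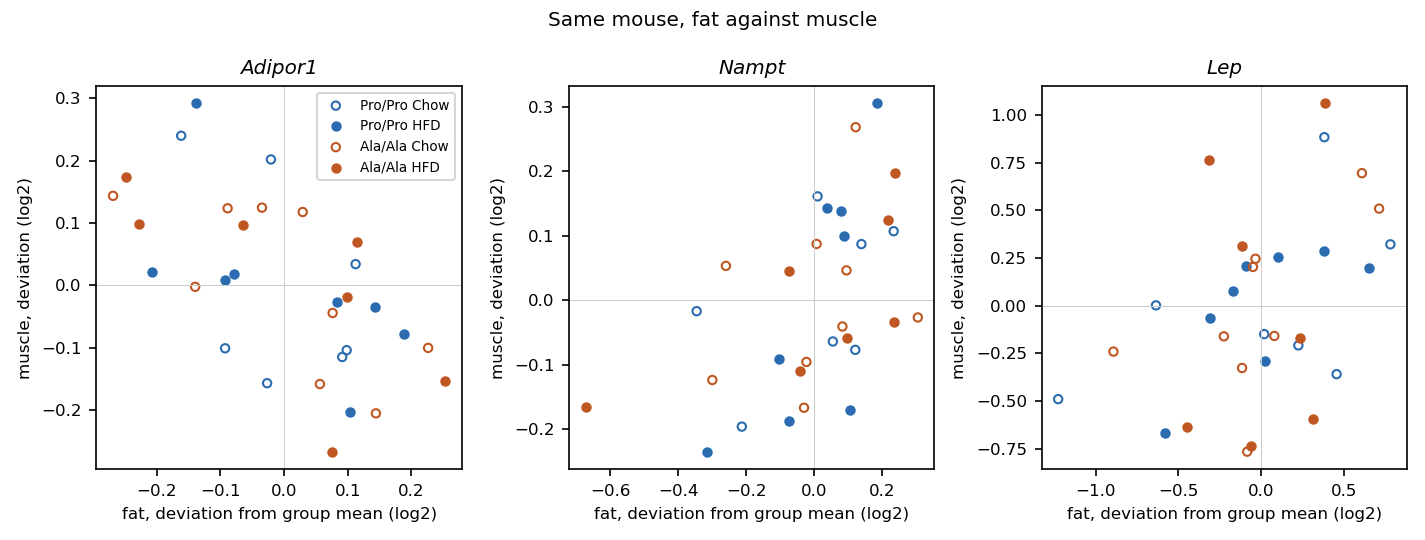
Deviation from the group mean in muscle against that in fat of the same mouse for Adipor1, Nampt and Lep, in log2 units (open circles chow, filled circles HFD, blue Pro/Pro, orange Ala/Ala; 31 mice). Adipor1 at probe set 100004390_TGI_at slopes downward (r = -0.63) and Nampt at probe set 100034846_TGI_at upward (r = 0.52).

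In muscle 13 of the measured partner genes were called for diet over both genotypes, 5 higher and 8 lower, or 11.9% beside 5.37% of all probe sets. As in fat, shares of partner genes and of all probe sets are not alike, since each gene stood by its most variable probe set. Among them Paqr9 rose by 0.40 ± 0.07, Paqr4 by 0.18 ± 0.05, Vegfa by 0.38 ± 0.07, Aldh1a1 by 0.23 ± 0.05 and Cfb by 0.22 ± 0.07. Retnla fell there by 0.43 ± 0.07, C1qtnf4 by 0.26 ± 0.05, Stat5b by 0.22 ± 0.06, Agtr1a by 0.22 ± 0.04, Gstk1 by 0.16 ± 0.03, Ctsl by 0.14 ± 0.03 and Appl2 by 0.13 ± 0.03. Retnla was also the 1 partner gene called for genotype over both diets in muscle, higher in Ala/Ala by 0.45 ± 0.07 (adjusted p = 0.00081), or 0.917% of them beside 0.0337% of all probe sets. In liver 0 genes of the partner lists passed for diet over both genotypes.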

How the data were processed

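Log10 ratios for 32640 probe sets were deposited, made in Rosetta Resolver per the labels, with a virtual pool of wild-type HFD arrays as the denominator. The sample text instead names pooled RNA of 10 wild-type mice. In fat and liver the mean of the ratios over the 10 pool arrays was 1 within 0.001 (log10) for 100% of probe sets. Only 8 muscle arrays of the pool were used here, and 10.54% of probe sets met this, so base, pool and direction were taken from the other tissues. Ratios were turned to log2 without further scaling. No intensities were used, so signal over background is unknown. Of the probe sets 25508 carry 1 gene symbol, 0 carry several and 7132 carry none. Of the symbols 21388 were current in NCBI's gene table of GRCm38.p6, 4066 matched a synonym and 54 were kept. The members, partner lists and tests were chosen with earlier results of these data known.

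Within a tissue, group means were fitted to all probe sets with limma 3.58.1 (R 4.3.3), with Benjamini-Hochberg adjustment per contrast and a threshold of 0.05. Tissues were compared over all 12 groups. The fit was tested on simulated data. Mouse numbers mark the same animal across tissues per the labels. Arrays of 1 mouse showed little shared deviation over all probe sets: the median correlation was 0.0108 (fat, muscle), -0.0159 (fat, liver) and -0.00947 (muscle, liver). Groups compared within a tissue share no mouse. Permutations (100000, within groups, 2-sided) tested correlations. For partner genes and correlations a gene was represented by its most variable probe set (variance inside tissues; for Adipor2, 100009718_TGI_at). The genes named are the members, Pparg for genotype, up to 4 partner genes per list with the smallest p past the threshold in fat and up to 2 in muscle and in liver, up to 3 genes most like each member in fat, and the neighbours of Adipor2 past the threshold for genotype over both diets. Retnla and Kdm5a for genotype were named after their values were seen.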

Additional observations from a re-analysis of the deposited data

Results flagged for a closer look

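Among 156 groups of 8 to 10 mice (13 probe sets in 12 groups), 13 held a highest or lowest mouse whose gap to the next was large for the group's range, where chance gives about 1 in 20 groups. Mouse152 was the lowest Ala/Ala HFD fat sample for Agt (-1.02), Nampt probe set 100034846_TGI_at (-0.56) and Adipor1 probe set 100038434_TGI_at (-0.21). Mouse143 was the highest Pro/Pro HFD muscle sample for Adipor2 probe set 100009718_TGI_at (0.42) and Adipor1 probe set 100004390_TGI_at (0.26). The remaining far values in fat were Adipoq in Mouse94 (Pro/Pro HFD, -0.14) and Retn in Mouse113 (Ala/Ala chow, -0.15). In muscle they were Agt in Mouse125 (Pro/Pro HFD, 0.33), Cfd in Mouse73 (Pro/Pro chow, -0.65), and Adipor2 probe set 100023351_TGI_at in Mouse105 (Pro/Pro chow, 0.24) and in Mouse128 (Ala/Ala HFD, 0.18). In liver they were Nampt probe set 100034846_TGI_at in Mouse99 (Ala/Ala HFD, 0.35) and Rarres2 in Mouse141 (Pro/Pro chow, 0.45).

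Of 78 tests of a difference between tissues in a member's effect, 14 passed. For genotype these were Adipor2 probe set 100023351_TGI_at in fat against liver (0.42) and in muscle against liver (0.41). For diet, fat differed from muscle for Agt (-1.21), Rarres2 (0.68), Retn (-0.43) and Adipoq (-0.37). Fat differed from liver for Lep (1.54), Agt (-1.21), Rarres2 (0.67), Cfd (-0.65), Rbp4 (0.49) and Nampt (-0.29 at probe set 100034846_TGI_at and -0.24 at 100012282_TGI_at). Muscle differed from liver for Lep (1.32). Of all probe sets 25.1%, 26.6% and 0.824% were called in these 3 diet comparisons. The calls of Retn, Adipoq and Nampt probe set 100012282_TGI_at ended when each tissue kept its own spread (adjusted p = 0.059, 0.10 and 0.062).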

How the results depend on the processing

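Of 33 member effects called within a tissue, 30 kept their call in every single omission of 1 of the 41 mice, and of all 47 called effects 30 kept it under every other alternative. Over single omissions the number of member genes called for diet in fat ranged from 7 to 8 in Pro/Pro, from 6 to 9 in Ala/Ala and from 8 to 9 over both. For diet in muscle it ranged from 0 to 1 in Pro/Pro, from 1 to 2 in Ala/Ala and from 1 to 3 over both, where leaving out Mouse73, Mouse84, Mouse123, Mouse125 or Mouse127 added a call. For genotype on HFD in muscle it ranged from 1 to 2, with Lep added without Mouse127 (1.27, adjusted p = 0.024). It was 1 throughout for the other genotype contrasts of fat and muscle, and 0 in liver and for the interactions.

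With 1 probe set per gene, where Adipor2 was represented by probe set 100009718_TGI_at, 0 members were called for genotype on chow, on HFD or over both diets, in fat and in muscle (main 1 each). With the mean of a gene's probe sets 0 were called in the 3 fat contrasts and on chow in muscle, and the diet difference of Adipor2 in Pro/Pro fat turned from -0.19 to 0.043 (adjusted p = 0.81). Without the 7 fat arrays that stood apart 0 were called for genotype on HFD in fat, and the methods' t-test called 0 on chow in fat at false discovery rates of 5% and 20%. The counts for diet in fat stayed within 1.5 times: under the alternatives other than omissions they lay between 6 and 8 in Pro/Pro (main 8), 5 and 9 in Ala/Ala (main 7) and 7 and 9 over both (main 9). Quantile normalization, and leaving out the 7 arrays, ended Adipor2 and Adipoq in Pro/Pro. The fit over 3 tissues ended Cfd and Adipoq within each genotype, and Adipor1 and Adipoq over both. The other counts that moved by over 1.5 times were for muscle. Quantile normalization gave 1 for diet in Pro/Pro, and a filter on variance gave 2 in Ala/Ala. Array weights gave 1 in Pro/Pro, 2 in Ala/Ala and 2 over both. The adipocyte covariate, and the adipocyte and hepatocyte covariates together (added after seeing the data), gave 2 in Pro/Pro and 2 over both. A threshold of 0.20 gave 2, 3 and 5, and 3 for the difference in diet effect between muscle and liver.

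The replicate block (mouse number, correlation -0.00688) gave 1, 4 and 3 members for diet in muscle, 4 for genotype on HFD and 3 over both diets. The same fit over 3 tissues with no block gave the same 5 counts. With 1 correlation of -0.00688 for all probe sets the fits could hardly differ. The match therefore does not test the pairing of single members. Both fits also share 1 spread over the tissues, which understates that of Lep, Adipoq and Retn in Ala/Ala HFD muscle. Across alternatives 115 values not past the threshold in either fit changed sign. Few arrays, unknown signal over background and the muscle pool limit these results.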
